A study of Homo sapiens with 4 samples.

Results

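EFNA5 circles are the circular RNAs that the deposited table places on EFNA5, the gene of the ephrin-A5 protein. A member was any back-splice position whose gene names include EFNA5 and whose type is not antisense. The table held 117 such positions among 211599, and 106 of them had at least 1 count. The other 11, all of intron type, had 0 counts in every library and are not described further. Each of the 117 named EFNA5 alone, so no count was shared with another gene name. EFNA5 was chosen by its summed circle counts, which were lower after HNRNPL knockdown in these same libraries. Its knockdown-against-control values are therefore given as a description and carry no test.

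All 4 libraries came from MDA-MB-468, a human line of breast cancer origin, in radioresistant cells raised by repeated irradiation to a total of 50 Gy. The 2 control libraries (shCtrl, genotype WT in the labels) carried a control short hairpin RNA, and the 2 knockdown libraries (shHNRNPL, genotype HNRNPL knockdown) one against HNRNPL. No unirradiated cells are among them, so both groups share the radiation history. The protocol names a single hairpin line, shHNRNPL-1, so an effect of that line and an effect of losing HNRNPL cannot be told apart. The study's design text describes the knockdown as stable and each pair of libraries as biological replicates, without saying how the cultures were separated. The assay was IMCR-seq, in which random-primed cDNA of total RNA is amplified with phi29 polymerase, an enzyme that copies circular templates over and over, and read on a nanopore sequencer.

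Ephrin-A5 is a ligand held at the outer face of the cell membrane by a lipid anchor. It binds Eph receptor tyrosine kinases on a neighbouring cell, and the contact signals into both cells, which usually steers cell repulsion, adhesion and migration. A circular RNA forms when a splice donor joins to an acceptor that lies before it in the transcript, a step called back-splicing. HNRNPL is an RNA-binding protein with a preference for CA-rich sequence, and it acts on the choice of splice sites. No circle in the table named HNRNPL, so the level of the knockdown target was not analysed here and the groups rest on the labels.

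The libraries held between 282737 and 556578 counts, and 3 counts corresponded to between 0.539 and 1.06 per 100000. That is the upper limit a count of 0 allows in a library, for counting error alone, since amplified reads without molecular identifiers are not independent molecules. Intron-type circles held 19.7% of the counts in control replicate 1 and between 9.93% and 10.6% in the other libraries. Of 6 epithelial and basal breast markers, 4 had counts: EPCAM circles had between 8 and 13 counts per library, CDH1 circles between 3 and 12 and KRT5 circles 2 in all, while KRT8 and KRT18 were at 0. EGFR, which this line is known to express strongly, had 115 and 52 counts in the controls against 12 and 21 in the knockdowns. Summed, these markers stood at 29.2 and 12.2 per 100000 in the controls against 8.49 and 9.47 in the knockdowns, and EGFR alone made up most of that sum. With TMM scaling the log2 fold change was -1.41 for EGFR, 0.63 for EPCAM and 0.34 for CDH1, so the tested markers did not share a direction. Of the tested markers, only EGFR had both knockdowns below both controls, as EFNA5 has below. The same held for 39.1% of host genes with at least 40 counts, and EGFR had an adjusted p of 0.211 (edgeR). Its part in the EFNA5 pattern was not tested. The immune markers PTPRC, CD3E and CD68 were at 0 in all libraries, and the fibroblast or mesenchymal list (VIM, ZEB1, FN1 and COL1A1) summed to at most 1.06 per 100000, with COL1A1 at 0.

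EFNA5 lies on the minus strand of chromosome 5, from 107376894 to 107670937 in the RefSeq table of GRCh38.p14, the build named in the submitters' processing notes. Its span of 294 kb was longer than that of 96.0% of protein-coding genes in that table. The only circle whose splice motif was written without a star joined position 107387235 to position 107427509 and was of exon type. The star is part of the deposited motif field, and its meaning is not given in the sources used here. That field read AG-GT for this circle, with both offsets at 0, and the shared bases at the junction read CAG. The circle was 440 nt long and was made of 3 blocks, which in the direction of transcription were 107427217 to 107427509 (293 nt), 107387706 to 107387771 (66 nt) and 107387235 to 107387315 (81 nt). These blocks serve below as the landmarks of the gene, because the reference tables used here hold gene spans and no exons.

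This 3-block circle was found 1 and 11 times in the controls against 0 and 2 times in the knockdowns. Per 100000 counts of the library its levels were 0.212 and 1.98 in the controls against 0 and 0.512 in knockdown replicates 1 and 2. The high value belonged to control replicate 2 alone, and control replicate 1 lay below knockdown replicate 2, so the groups overlapped.

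The circle from 107427217 to 107428863 was 1 of 2 that tied for the most counts. It started from the same downstream edge as the 293 nt block and closed at a position 1354 nt beyond that block's upstream edge. The table types it as intron, with the motif AG-GT*, both offsets at 0 and 3 alternative inner structures. One of these joined the 293 nt block to a block of 724 nt, another joined it to 261 nt, and the third was unspliced over 1647 nt. It had 9 and 26 counts in the controls against 0 and 2 in the knockdowns, which is 1.91 and 4.67 against 0 and 0.512 per 100000. Both controls lay above both knockdowns. Of the 10 EFNA5 circles with at least 10 counts in all, this was the only one whose groups did not overlap in that direction, beside 22.9% of the 21576 circles in the table with that many counts.

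The other 8 circles with at least 10 counts were each found in a single library, which was a control. No circle had more than 3 counts in a knockdown library, so none could reach 10 counts through the knockdowns alone. The circle from 107559803 to 107561764 (1962 nt, intron type) had 37 counts in control replicate 2 and 0 elsewhere. The circle from 107636277 to 107637390 (1114 nt, intron type, motif AG-AT*) had 29 counts in control replicate 2. A slightly longer circle beside it, from 107636147 to 107637315 (1169 nt, intron type), had 10 counts in control replicate 2. These last 2 circles overlapped over most of their length, and neither was seen in control replicate 1.

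The remaining 5 of these were seen only in control replicate 1. The circle from 107380517 to 107380947 (431 nt) had 26 counts and was of exon type, and it lay 290.0 kb from the 5′ end of the gene, near its 3′ end. The circle from 107600132 to 107601049 (918 nt) had 16 counts, and that from 107452641 to 107455514 (2874 nt) had 13. The circles from 107604387 to 107608391 (4005 nt) and from 107632661 to 107634118 (1458 nt) had 10 counts each. The last 4 were of intron type and unspliced. So the most counted EFNA5 circles of one control were, apart from the 2 circles at the 293 nt block, different from those of the other control.

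The 96 circles with fewer than 10 counts held 279 of the 481 EFNA5 counts. Of all 106 circles, 42 had a total of 2 counts and 12 a total of 1, and these 12 were all in control replicate 1. The circle from 107657929 to 107659144 had 3 and 5 counts in the controls against 0 in both knockdowns, and that from 107581313 to 107583338 had 3 and 4 against 0 and 0. In the other direction, the circle from 107454250 to 107456470 had 0 counts in both controls and 1 and 3 in the knockdowns, and that from 107524454 to 107526812 had 0 in both controls and 2 in each knockdown. All 4 are of intron type, and a difference of this size is at the limit of what these depths can show.

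By type, 103 circles with 439 counts were intron circles and 3 with 42 counts were exon circles. The third exon circle, from 107378129 to 107379577, had 2 counts in control replicate 1. Unspliced circles of 1 block numbered 91 (85.8%), against 67.0% of all intron-type circles in the table. Starred motifs marked 101 (95.3%), a share close to the 95.7% of all intron-type circles and above the 41.6% of all exon-type circles. The motif was AG-GT* in 80 circles, AG-AT* in 10, AG-GC* and AC-AT* in 4 each and AC-GT* in 3, and 4 circles had neither a motif nor a strand. Both motif offsets were 0 in 10 circles (9.43%), against 27.0% of all intron-type and 65.1% of all exon-type circles. Circle length ran from 374 to 6769 nt with a median of 1559 nt, beside a median of 1561 nt for all intron-type circles.

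Of the 10 circles with both offsets at 0, 5 started at the downstream edge of the 293 nt block and 3 at that of the 81 nt block. Of 202 back-splice positions used by EFNA5 circles, 197 belonged to 1 circle only. The edge at 107427217 served 6 circles in all, and the edge at 107387235 served 3. The 6 circles from 107427217 had 10 and 32 counts in the controls against 1 and 3 in the knockdowns, or 2.12 and 5.75 against 0.354 and 0.768 per 100000. Several blocks upstream of the 293 nt block also recurred. One of 296 nt (107438602 to 107438897) and one of 78 nt (107440623 to 107440700) were each part of 4 circles, with 1 and 4 counts in the controls against 1 in each knockdown.

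Most EFNA5 circles lay in the long stretch between the 293 nt block and the 5′ end of the gene. This stretch covers 243 kb, or 82.8% of the span, and held 83 of the 106 circles and 349 of the 481 counts. Its levels were 32.8 and 27.5 per 100000 in the controls against 5.66 and 6.40 in the knockdowns. A further 8 circles started at or downstream of the 293 nt block and closed inside the long stretch, at 2.12 and 6.11 per 100000 in the controls against 1.06 and 0.768 in the knockdowns. The 13 circles that lay wholly downstream of the stretch stood at 8.89 and 5.03 in the controls against 0.707 and 1.02 in the knockdowns. In all 3 sets the 2 controls lay above the 2 knockdowns, by 5.00-fold in the long stretch, 4.50-fold across its edge and 8.04-fold downstream on the group means. The remaining 2 circles reached past the 3′ end of the RefSeq span, the farther by 146 kb. None reached the window from 250 bases before to 50 bases after the gene's start, and the nearest back splice lay 2.03 kb downstream of the 5′ end.

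**Figure D1:**
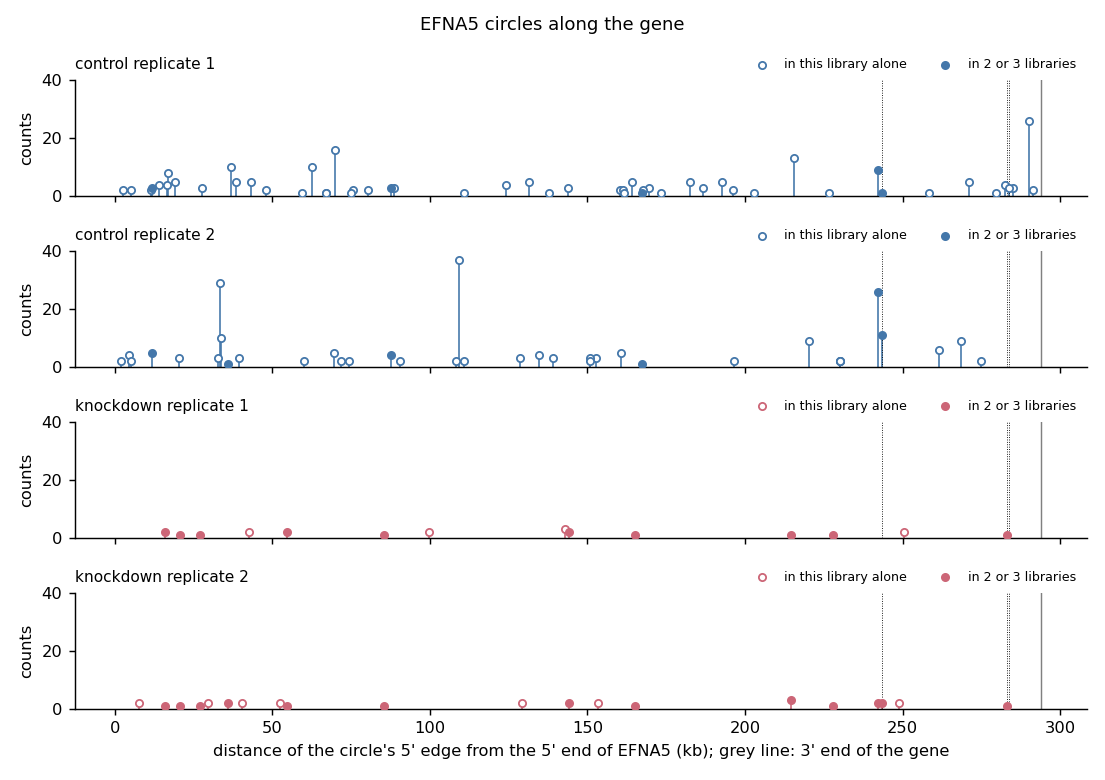
EFNA5 circles along the gene in each of the 4 libraries: each stem is 1 circle, placed at the distance of its 5′ edge from the 5′ end of the gene (kb) and drawn to its count. Open points are circles found in that library alone, filled points circles found in 2 or 3 libraries, dotted lines the upstream edges of the 3 blocks, and the grey line the 3′ end of the gene. Tall stems stand at different places in the 2 controls except beside the 293 nt block, and no stem in either knockdown exceeds 3 counts.

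Summed over all its circles, EFNA5 had 211 and 215 counts in the controls against 22 and 33 in the knockdowns. Per 100000 these were 44.7 and 38.6 in the controls against 7.78 and 8.45 in the knockdowns. The group means were 41.6 ± 4.27 and 8.12 ± 0.473 (SD, n = 2), a 5.13-fold lower level after knockdown. The gap between the groups was several times the spread within either. EFNA5 was chosen on this same contrast, so the size of the gap is no support for a difference. In bulk RNA, fewer cells with EFNA5 circles and fewer EFNA5 circles per cell cannot be told apart, and linear EFNA5 RNA was not analysed here. For scale, both knockdowns lay below both controls for 39.1% of the 3365 host genes with at least 40 counts, and 5.59% were at least 4-fold lower. In the fit across all host genes the log2 fold change was -2.03 with TMM scaling and -2.43 with library-size scaling, beside medians of -0.27 and -0.67 over the 5911 host genes tested. Of the tested host genes, 0.0338% were lower with an adjusted p under 0.05 (edgeR). That contrast chose EFNA5, so nothing is read from it here.

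Exon-type EFNA5 circles had 29 and 11 counts in the controls against 0 and 2 in the knockdowns. Of the 29, 26 came from the single circle near the 3′ end described above. Intron-type circles stood at 38.5 and 36.7 per 100000 in the controls against 7.78 and 7.94 in the knockdowns, so they carried most of the difference. Because control replicate 1 was richer in intron circles, EFNA5 intron counts were also set against all intron-type counts of the same library. On that scale the values were 196 and 346 per 100000 intron counts in the controls against 78.3 and 79.4 in the knockdowns. The groups still did not overlap, the order of the 2 controls turned, and the fold between group means was 3.43.

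**Figure D2:**
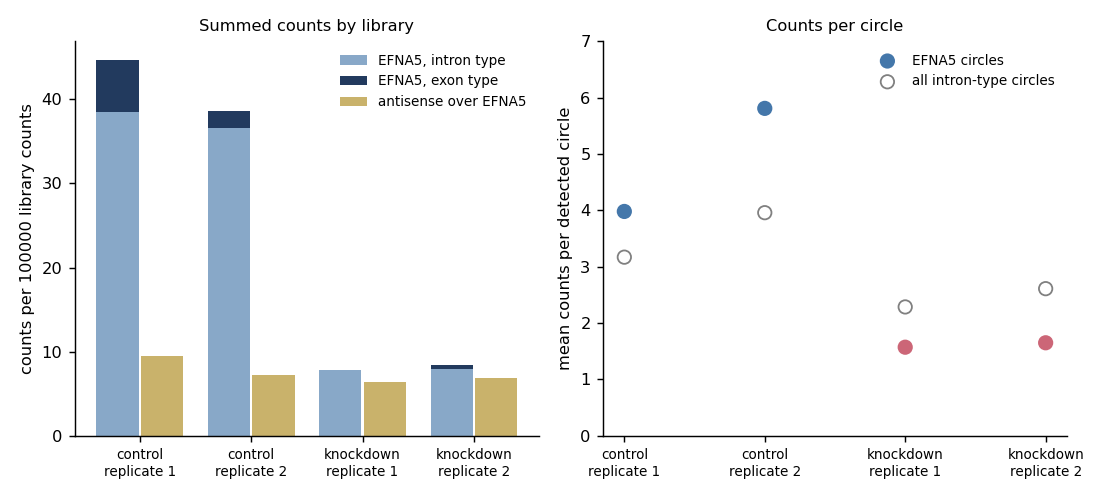
Left: EFNA5 circle counts per 100000 counts of each library, stacked by intron and exon type, beside the antisense counts over the same gene. Right: mean counts per detected circle for EFNA5 (filled) and for all intron-type circles of the table (open); EFNA5 lies above the open points in the controls (3.98 and 5.81) and below them in the knockdowns (1.57 and 1.65).

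The lower sum had 2 components, the number of different circles and the counts on each. EFNA5 circles detected numbered 53 and 37 in the controls against 14 and 20 in the knockdowns. The expected numbers at an equal depth of 282737 counts were 44.8 and 31.5 in the controls against 14 and 16.9 in the knockdowns. Each detected circle carried on average 3.98 and 5.81 counts in the controls against 1.57 and 1.65 in the knockdowns. Over all intron-type circles of the table the same averages were 3.17 and 3.96 in the controls against 2.29 and 2.61 in the knockdowns. With every circle counted once per library, the group means were 8.93 ± 3.23 and 5.04 ± 0.120 per 100000 (SD, n = 2), which is 1.77-fold lower in place of 5.13-fold. Circles with at least 5 counts in a library numbered 15 and 11 in the controls against 0 in either knockdown, and no circle had more than 3 counts in a knockdown library. Without the 10 circles of at least 10 counts, the group means were 22.5 ± 5.90 and 7.60 ± 0.251 per 100000 (SD, n = 2), 2.96-fold lower.

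**Figure D3:**
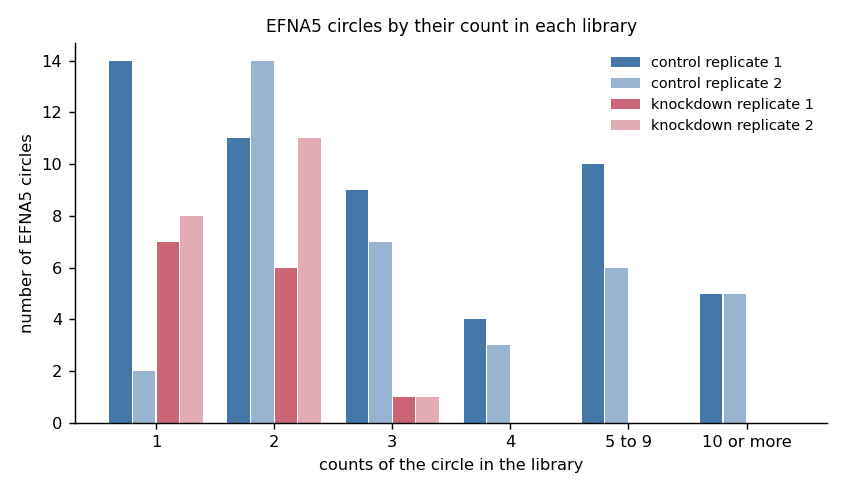
Number of EFNA5 circles (y axis) by the count each had in a library (x axis), with 1 bar per library. The bars of 4, 5 to 9 and 10 or more counts are filled by the 2 controls alone.

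No EFNA5 circle was found in all 4 libraries. Of the 106, 90 (84.9%) were found in 1 library, 14 in 2 and 2 in 3, while 73.5% of all intron-type and 45.8% of all exon-type circles were found in 1 library. The 90 circles held 194 and 167 counts in the controls against 9 and 14 in the knockdowns, and their share of the EFNA5 counts was 91.9%, 77.7%, 40.9% and 42.4% in control replicates 1 and 2 and knockdown replicates 1 and 2. The 16 circles found in 2 or 3 libraries stood at 3.60 and 8.62 per 100000 in the controls against 4.60 and 4.86 in the knockdowns. For these the groups overlapped, but the way the set is formed shapes that. Of the 16, 10 were found in the 2 knockdowns alone, so their control counts are 0, and 3 in the 2 controls alone. The overlap therefore does not show how the groups compare.

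The 2 controls shared 5 circles, which is 9.43% of those of control replicate 1 and 13.5% of those of control replicate 2. The 2 knockdowns shared 10, or 71.4% and 50.0% of theirs. Across all intron-type circles the corresponding shares were 14.1% and 27.8% for the controls and 68.6% and 56.3% for the knockdowns, so the unequal agreement of the replicate pairs was also present in the table as a whole. Only 3 EFNA5 circles were found in both groups, which is 3.53% of the 85 seen in controls and 12.5% of the 24 seen in knockdowns. For all intron-type circles these shares were 15.6% and 33.3%, and for all exon-type circles 48.7% and 65.9%. They were the 3-block circle, the circle that closes at 107428863, and one from 107629931 to 107635002 with 1 count in control replicate 2 and 2 in knockdown replicate 2. The similar sums of the controls were thus made of mostly different circles.

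No single circle dominated the gene. The most counted circle of each library held 12.3% of the EFNA5 counts in control replicate 1 (exact Clopper-Pearson 95% interval 8.21 to 17.5%) and 17.2% in control replicate 2 (12.4 to 22.9%). In knockdown replicates 1 and 2 it held 13.6% (2.91 to 34.9%) and 9.09% (1.92 to 24.3%). Over the 4 libraries together, the leading circle held 7.69% of the counts of EFNA5, beside a median of 24.2% over the 3365 host genes. The share of intron-type counts was 91.3% for EFNA5 and 14.3% for the median host gene, and 96.9% of those host genes had a lower share than EFNA5.

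Antisense circles over EFNA5 were not used to choose the gene, and they come from the same locus and the same libraries. Whether they are independent of the sense circles was not tested. There were 70 such positions, 54 of them with counts, and the strand is the one given in the table. They had 45 and 40 counts in the controls against 18 and 27 in the knockdowns, or 9.53 and 7.19 against 6.37 and 6.91 per 100000. The group means were 8.36 ± 1.65 and 6.64 ± 0.387 (SD, n = 2), and both knockdowns lay below both controls, by a difference close in size to the SD of the controls. Both knockdowns also lay below both controls for 39.1% of host genes with at least 40 counts. An exact two-sided permutation test on the summed levels gave p = 0.333, the smallest that 2 against 2 allows, so this design cannot decide on the difference. With every antisense circle counted once per library, the means were 3.59 ± 1.51 in the controls and 4.17 ± 0.104 in the knockdowns (SD, n = 2). On that scale the groups overlapped.

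Host genes made largely of intron circles were examined as a class. Of the 3365 host genes with at least 40 counts, 187 had at least 80% of their counts in intron-type circles, EFNA5 among them. Both knockdowns lay below both controls for 39.0% of these, beside 39.1% of all, and 14.4% were at least 4-fold lower by group means, beside 5.59% of all. Their median log2 fold change was -0.33, beside -0.10 over the 3365. Apart from EFNA5, which this contrast chose, edgeR called 3 of the 187, all higher. Over all 3365 host genes it called 86 higher and 2 lower, so higher calls prevailed in the whole set as well.

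The 5 host genes whose pattern over the 4 libraries was closest to that of EFNA5 were ZNF609, AIG1, CHKA, IGF2BP2 and HNRNPC. Likeness was the Euclidean distance between centred log2 values (counts per 100000 plus 0.5) over 4 libraries, and it lay between 0.33 and 0.39 for these 5. ZNF609, a zinc finger gene known as a host of a circular RNA, had 25 and 24 counts in the controls against 1 and 3 in the knockdowns. CHKA, which encodes a choline kinase, had 179 and 146 against 17 and 31. HNRNPC, the gene of an RNA-binding splicing factor, had 253 and 230 against 33 and 49. AIG1 had 22 and 24 against 1 and 3, and IGF2BP2, the gene of an mRNA-binding protein, 20 and 24 against 1 and 1. By ratio, the 2 controls per 100000 differed most in CHKA (37.9 and 26.2) and least in IGF2BP2 (4.23 and 4.31). All 5 had knockdowns far below their controls, which is what the ranking selects. Their make-up varied, with intron-type shares of 96.0% for AIG1, 84.8% for IGF2BP2, 52.8% for ZNF609, 33.5% for CHKA and 17.2% for HNRNPC, against 91.3% for EFNA5.

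**Figure D4:**
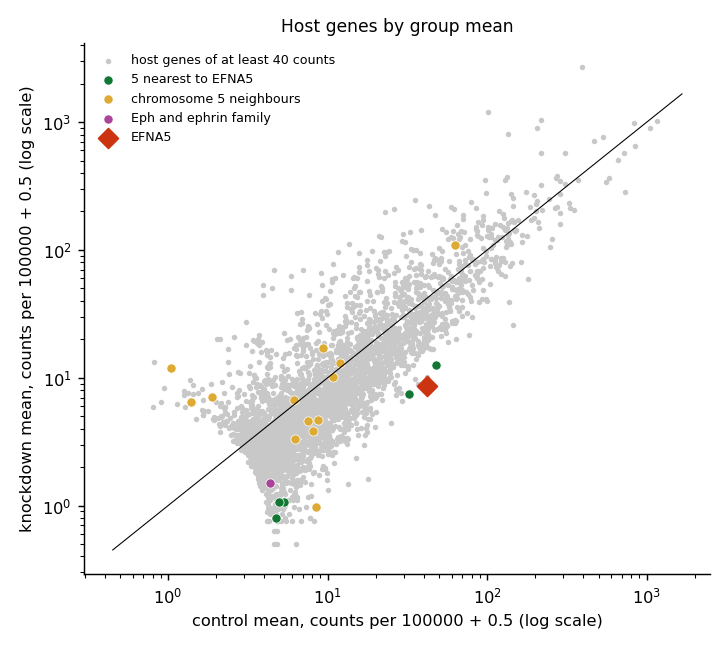
Control mean (x axis) against knockdown mean (y axis) of summed circle counts per 100000, plus 0.5, on log scales, for the 3365 host genes with at least 40 counts; the line marks equal means. EFNA5 (diamond, 41.6 and 8.12 per 100000 before the 0.5 is added) lies below the line at the lower edge of the cloud, near CHKA and HNRNPC. Coloured points mark the 5 nearest host genes, the chromosome 5 neighbours and the Eph and ephrin family, and 3 of the 5 nearest host genes lie at lower levels.

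The other ephrins and the Eph receptors were sparse hosts. Of 21 genes, 5 had any count and 4 had the 10 counts needed for a test, and none of the 4 had an adjusted p under 0.05 with edgeR, while 1.51% of all host genes did. None had an unadjusted p under 0.05 either, beside 6.89% of all host genes lower and 8.12% higher, and DESeq2 also called 0. Their adjusted p lay between 0.404 and 0.813. EPHA6, an Eph receptor, had 22 and 17 counts in the controls against 2 and 5 in the knockdowns, or 4.66 and 3.05 against 0.707 and 1.28 per 100000. EPHB4, the receptor known as a partner of ephrin-B2, had 7 and 12 counts against 1 and 0, and EFNB2, the gene of ephrin-B2, had 10 and 0 against 0 and 2. EPHA4 had 8 and 3 counts against 0 and 0, which is at least 1.22-fold lower when each knockdown is set to the limit of 3 counts per library. The median log2 fold change of the 4 was -2.31, or -1.46 with EPHA4 at its bound, beside -0.27 over all host genes. Without control replicate 1, only 2 of the 4 had enough counts, with a median log2 fold change of -2.38. The other ephrin-A genes, EFNA1 to EFNA4, all had 0 counts.

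Genes that act downstream of Eph receptors and ephrins were better covered. Of 46 kinases, adaptors, exchange factors and other partners, 36 had counts and 34 could be tested. None had an adjusted p under 0.05 with edgeR, while 1.51% of all host genes did, and DESeq2 called 0. In the edgeR fit 3 were higher and 3 lower at an unadjusted p under 0.05, beside 8.12% and 6.89% of all host genes. The median log2 fold change of the 34 was -0.33, beside -0.27 over all host genes. It was -0.31 with NCK1, which had 0 knockdown counts, at its bound. PTK2, the gene of focal adhesion kinase, had 526 and 763 counts in the controls against 233 and 312 in the knockdowns, or 124 ± 18.2 against 81.1 ± 1.78 per 100000 (SD, n = 2). AFDN, the gene of the junction scaffold afadin, stood at 80.2 ± 4.47 and 52.7 ± 5.50 per 100000 (SD, n = 2). RASA1, which encodes a GTPase-activating protein for Ras, stood at 40.5 ± 10.8 and 31.7 ± 4.23 per 100000 (SD, n = 2). With 1 library left out, their median log2 fold change ranged from -0.35 (without knockdown replicate 2) to -0.10 (without control replicate 2).

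The genes beside EFNA5 on chromosome 5 varied in direction. Of 18 neighbours, 15 could be tested, and their median log2 fold change was 0.45, beside -0.27 over all host genes, with 9 above 0 and 6 below. With library-size scaling this median was 0.036, beside -0.67 over all host genes. The nearest tested neighbour was FBXL17, the gene of an F-box protein, 0.188 Mb beyond the 5′ end of EFNA5. It had 49 and 69 counts in the controls against 36 and 49 in the knockdowns, or 10.4 and 12.4 against 12.7 and 12.5 per 100000, and its circles were 50.2% intron type by count. FER, the gene of a tyrosine kinase 1.08 Mb away, had 7.20 and 4.13 per 100000 in the controls against 6.72 and 5.63 in the knockdowns. FBXL17 and FER were named here for their position, after their values had been seen.

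One neighbour passed, GIN1, and it was higher after knockdown, where 1.47% of all host genes were. It lies 4.26 Mb from EFNA5 on the side of its 3′ end and had 0 and 6 counts in the controls against 28 and 51 in the knockdowns. Its level per 100000 was 0.539 ± 0.762 in the controls against 11.5 ± 2.23 in the knockdowns (SD, n = 2). The log2 fold change was 4.53 and edgeR's adjusted p 0.0353. Over the settings tried its log2 fold change ranged from 3.60 to 8.76. The call was lost with library-size scaling, the newer dispersion method and a filter of 5 counts in 2 libraries. It was also not kept in every fit with 1 library left out. NREP, 4.06 Mb away on the other side and 97.7% intron type by count, had 27 and 57 counts in the controls against 2 and 1 in the knockdowns and did not pass (adjusted p of 0.0549 in edgeR). In fits that kept every library, NREP was called lower with no filter, with a filter of 40 counts and with a replicate block. NREP too was singled out after its values had been seen. Without control replicate 1 or 2, the median log2 fold change of the neighbours was 0.35 or 0.37.

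**Figure D5:**
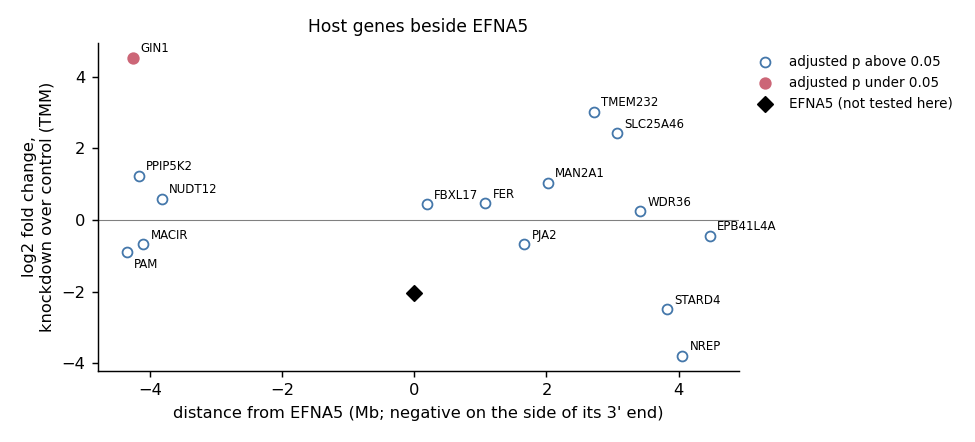
Log2 fold change (knockdown over control, TMM scaling) of the 15 tested host genes on both sides of EFNA5 against their distance from it in Mb; the filled circle, GIN1, is the one with an adjusted p under 0.05 in edgeR. EFNA5 (diamond, -2.03) lies at 0 Mb below its nearest tested neighbours FBXL17 (0.45) and FER (0.47).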

How the data were processed

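The deposited values are raw counts for each back-splice position, whole and without normalization. Every row names CIRI-long as the caller, per the file headers and columns. The genome build GRCh38.p14 and DESeq2 are named in the submitters' processing notes. Caller version and filters are not given in the sources used here. A second deposited table of scaled values was not used. Levels were recomputed as counts per 100000 of the library total. Host genes were summed over circles that name 1 gene and are not antisense. They were fitted with edgeR 4.0.16 in R 4.3.3 (TMM, quasi-likelihood test with the older, legacy dispersion method, at least 10 counts over the libraries). P-values were adjusted by Benjamini-Hochberg over all host genes, with a threshold of 0.05. The procedure was tested on simulated data. DESeq2 1.42.0, other scalings, filters and single omitted libraries were alternatives. The members and gene lists were chosen with earlier results of these data known. Circles of at least 10 counts were named, with list members past the threshold or otherwise the 3 with the most counts. No genome sequence was used, so sequences beside the back splices were not analysed here.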

Additional observations from a re-analysis of the deposited data

How the results depend on the processing

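The log2 fold change of summed EFNA5 circles, -2.03, was -2.43 with library-size scaling and -3.50 with exon circles only, and lay between -2.10 and -1.85 when single libraries were left out. The log2 ratio of group means, -2.36, was -0.83 with each circle counted once per library, -1.78 on intron counts and -1.57 without the circles of at least 10 counts, all chosen after seeing the data, and -2.46 to -2.25 over omitted libraries. The leading circle's share was -3.40 percentage points in knockdowns minus controls, 18.3 over circles of at least 10 counts, 5.17 over exon circles (sets with 0 counts in knockdown replicate 1 and only 4 and 2 in knockdown replicate 2), and -5.85 to -0.96 over omitted libraries. Calls over omitted libraries ranged from 0 to 1 in the Eph and ephrin family, 0 to 13 among effectors and 0 to 8 among neighbours. Each fit with an omitted library left 1 library in a group. The share of all host genes called in those fits is not given here, so these ranges cannot show whether a list stands out. With every library kept, effectors had 1 call with no filter and 1 with a replicate block. Neighbours had 1 call, but 0 with library-size scaling, the newer dispersion method or 5 counts in 2 libraries, 2 with 40 counts (GIN1 and NREP), and 4 with no filter or a replicate block (these with SLC25A46 and TMEM232). The replicate block left EFNA5 at -2.04. Replicate numbers are only names here, since no label pairs them, and over 3365 host genes the deviations of libraries with one number had a correlation of 0.05. The cause of these changes was not tested. With 22 and 33 counts in the knockdowns, single EFNA5 circles are at the limit of detection.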
